A study of Homo sapiens with 4 samples.

Results

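The genes described here make glutathione, recycle it and spend it on peroxides. With them come NFE2L2 (NRF2), which activates many of these genes, and KEAP1, which marks NRF2 for destruction. All were chosen by symbol, with earlier results of these data known. Each of the 10 symbols matched 1 of the 57773 Ensembl gene IDs listed for every library. RNA was sequenced from MIA-PaCa2, an established human pancreatic cancer cell line, in an untreated group and an AMG510-resistant group of 2 libraries each. AMG510 (sotorasib) is a drug that acts on the RAS pathway. The resistant populations were selected by raising the dose over 2 months to 5 µM, and the labels do not state whether drug was in the medium at harvest. All cells were kept in DMEM with fetal calf serum. One treatment label of resistant replicate 2 names AMG511, but its title names AMG510, and it was kept with that group. The design text speaks of 2 resistant populations and 2 untreated ones but not of when they were parted, so p-values measure only the spread between these libraries.

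Libraries held between 30146559 and 38052558 expected counts, the read numbers that the authors' program assigned to each gene. Levels are given in CPM, the normalised read count (counts scaled to the size of each library). Called genes are those with a Benjamini-Hochberg adjusted p under 0.05 in edgeR's quasi-likelihood test of 16090 genes. Of these, 34.0% were called, 16.6% higher and 17.4% lower in the resistant libraries. The number called was 5463, and 2832 without untreated replicate 1. Of 5 epithelial markers 2 were called lower, 0 were at 0 in all libraries, and their summed level was 3955 to 5635 CPM in untreated and 2055 to 2620 CPM in resistant libraries. The called ones were KRT8, between 961.8 and 3091 CPM over the libraries, and KRT18, between 957.2 and 2282 CPM, a pair whose exons overlap on opposite strands and whose counts are thus uncertain. KRT19 did not pass (adjusted p = 0.179), and the epithelial cadherin CDH1 was nearly absent, at most 1.21 CPM. Of 7 markers of leukocytes, macrophages, endothelium and stroma, 4 were tested and PDGFRB was called, with a log2 fold change of 4.86. PDGFRB was kept for testing only through the resistant libraries. CD68 did not pass (adjusted p = 0.376), had its highest level in resistant replicate 1 (33.7 CPM) and is uncertain through overlapping transcripts. Their summed level was 18.3 to 19.1 CPM in untreated, 44.9 in resistant replicate 1 and 12.7 in resistant replicate 2. Of the 7 markers 0 were at 0 in all libraries, and PTPRC, DCN and LUM were at most 0.190 CPM in any. The part of such cells in the results below was not tested, and in bulk RNA fewer cells of a type and less RNA per cell cannot be told apart.

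Glutathione is a tripeptide of glutamate, cysteine and glycine. Glutamate-cysteine ligase, a catalytic subunit (GCLC) with a modifier subunit (GCLM), makes the first bond, and glutathione synthetase (GSS) adds glycine. Glutathione peroxidases use the thiol to reduce peroxides, and glutathione reductase (GSR) restores the oxidised form with NADPH. NRF2 activates many of these genes through antioxidant response elements, and KEAP1 presents NRF2 to a CUL3 ubiquitin ligase for destruction, so much of NRF2's control acts on the protein and is not visible in its mRNA.

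In the resistant libraries GCLM fell 3.50-fold, GSR 1.68-fold, KEAP1 1.49-fold and GPX8 1.38-fold. No gene of the group rose at the threshold. NFE2L2, GCLC, GSS, GPX1 and GPX4 did not pass, and GPX2 had too few counts to test. In counts, 4 of the 9 tested members were called lower, beside 17.4% of all tested genes, and 0 were called higher, beside 16.6%. At an unadjusted p below 0.05 the edgeR test also found 0 members higher, and DESeq2 and limma-voom called 0 higher. The median log2 fold change of the 9 was −0.36, where all tested genes had a median of −0.01. In 6 of the 9 both resistant libraries lay below both untreated ones, which held for 36.3% of tested genes. In 1 member, NFE2L2, both lay above, which held for 34.6%. Because members and the lists below were chosen with earlier results of these data known, such shares are descriptive and no independent test. The number called lower was 2 when untreated replicate 1 or resistant replicate 2 was left out, and without the latter 1 member, GPX4, was called higher.

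**Figure D1:**
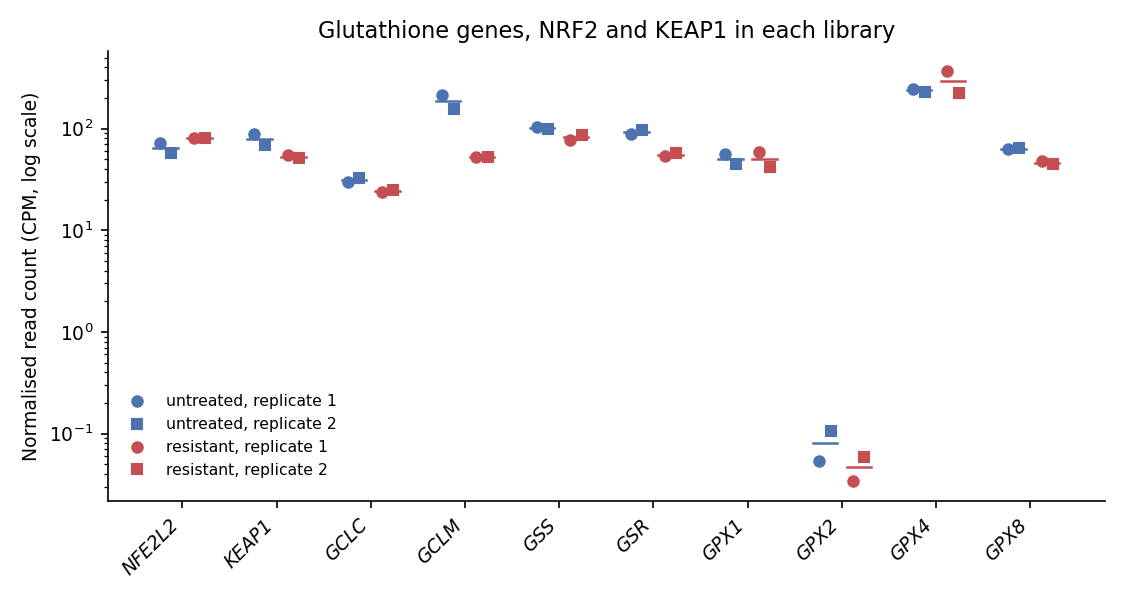
Normalised read count (CPM, log axis) of each of the 10 genes. Points are single libraries, blue for untreated and red for resistant, circles for replicate 1 and squares for replicate 2, and short lines are group means. The largest gap between groups is at GCLM, with 157 and 213 CPM in untreated and 52.6 and 52.9 CPM in resistant libraries, and GPX2 lies near 0.1 CPM or below.

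GCLM (ENSG00000023909, chromosome 1) encodes the modifier subunit that makes the ligase more efficient. It stood at 213 and 157 CPM in untreated replicates 1 and 2 and at 52.6 and 52.9 CPM in resistant replicates 1 and 2. Both resistant values lay well below both untreated ones and were almost equal, whereas the untreated ones differed by 0.44 on the log2 scale. Its group means were 185 ± 39.8 CPM and 52.8 ± 0.205 CPM (SD, n = 2). The log2 fold change was −1.81 (SE 0.18, 95% interval −2.22 to −1.40, adjusted p = 9.20e-05). It was called in all 12 alternative analyses, with log2 fold changes from −2.02 to −1.55.

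GCLC (ENSG00000001084, chromosome 6), the catalytic subunit, had 29.9 and 32.7 CPM in untreated and 23.7 and 25.0 CPM in resistant libraries. Both resistant values lay below both untreated ones, but the difference did not pass (log2 fold change −0.36, 95% interval −0.76 to 0.03, adjusted p = 0.145). An overlapping long intergenic RNA on the same strand was assigned at most 24 counts in a library.

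The 2 subunits were also set against each other within each library. Per kilobase of exon, GCLM stood at 11.4 and 7.65 times the level of GCLC in untreated replicates 1 and 2, and at 3.55 and 3.38 times in resistant replicates 1 and 2. Exon lengths covered all annotated exons of each gene, so the size of the ratios is approximate and gives no ratio of the proteins. These ratios did not overlap between groups, and their mean log2 value differed by −1.43. With 2 libraries against 2, the exact permutation test (two-sided) gave p = 0.333, the smallest this design allows.

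GSS (ENSG00000100983, chromosome 20), which completes the tripeptide, had 104 and 99.4 CPM in untreated and 77.3 and 87.4 CPM in resistant libraries. The groups did not overlap, and the resistant values were lower. The difference did not pass (log2 fold change −0.30, 95% interval −0.64 to 0.04, adjusted p = 0.155).

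GCLM is a textbook NRF2 target, so the promoter windows of all members were searched for the core of the antioxidant response element. RefSeq windows on GRCh38.p14, from 250 bases before to 50 bases after each annotated start, were at hand for 8 of the 10 members, and GSS and GSR were not among them. The letters TGACNNNGC were searched on both strands, and no other motif was sought. Of all 35116 windows, 13.3% held a match, and of the 27305 genes with a window, 16.1% had at least 1. Among the 8 members GCLM and GPX2 had 1 match each and KEAP1 had 2. The stretches below show 1 match of each gene in capitals with 10 bases on each side, read 5′ to 3′ along the gene's strand.
GCLM, chr1:93909446-93909474, minus strand: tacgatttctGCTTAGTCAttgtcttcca
GPX2, chr14:64942849-64942877, minus strand: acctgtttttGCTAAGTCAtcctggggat
KEAP1, chr19:10502784-10502812, minus strand: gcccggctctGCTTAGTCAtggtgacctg

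The GCLM match lay 34 to 26 bases before the start and read TGACTAAGC on the opposite strand. The same 9 letters lay 31 to 23 bases before one of the 2 KEAP1 starts, whose window held a further match, TGACACGGC, 54 to 46 bases before the start. The window of the other KEAP1 start held none. In GPX2 the match read TGACTTAGC, 122 to 114 bases before the start. The windows of NFE2L2, GCLC, GPX1, GPX4 and GPX8 did not hold these letters, and sequence outside the windows was not searched. A match is a string of letters and no measure of binding. The 3 genes with a match were not alike in level, since GCLM and KEAP1 were expressed and called lower, whereas GPX2 was near 0 in every library.

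NFE2L2 (ENSG00000116044, chromosome 2), the gene of NRF2, had 72.2 and 58.0 CPM in untreated and 80.2 and 80.7 CPM in resistant libraries. The resistant values were the higher pair, close to each other, and the untreated ones were 0.32 apart on the log2 scale. The difference did not pass (log2 fold change 0.31, 95% interval −0.06 to 0.67, adjusted p = 0.177), and no alternative analysis called it. Its exons overlap AGPS on the opposite strand by 54 bases and a sense-overlapping transcript by 1054 bases, so its counts carry some uncertainty.

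KEAP1 (ENSG00000079999, chromosome 19), the adaptor that marks NRF2 for degradation, had 88.2 and 69.2 CPM in untreated and 54.5 and 51.1 CPM in resistant libraries. Both resistant values lay below the lower untreated one. The log2 fold change was −0.58 (SE 0.17, 95% interval −0.95 to −0.20, adjusted p = 0.0240). It was not called without untreated replicate 1 (log2 fold change −0.37, adjusted p = 0.240) or without resistant replicate 2 (adjusted p = 0.0669).

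GSR (ENSG00000104687, chromosome 8), the reductase that returns oxidised glutathione to its thiol form, had 88.5 and 97.9 CPM in untreated and 54.2 and 56.9 CPM in resistant libraries. The groups were well separated, with little spread in either. The log2 fold change was −0.75 (SE 0.15, 95% interval −1.09 to −0.41, adjusted p = 0.00457). All 12 alternatives called it, with log2 fold changes from −0.80 to −0.68.

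**Figure D2:**
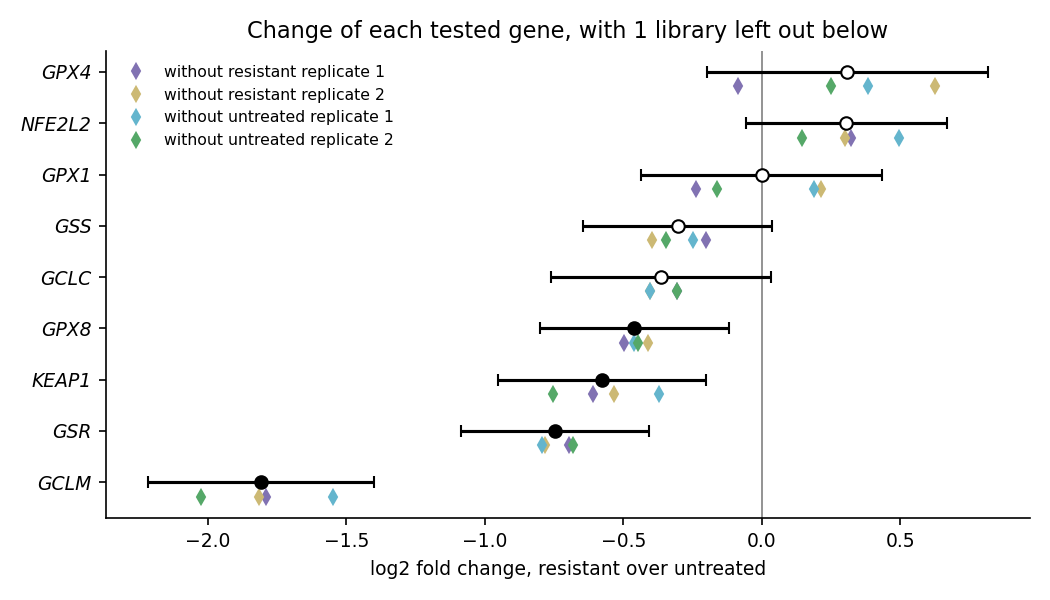
Log2 fold change of resistant over untreated libraries (horizontal axis) for the 9 tested genes. Circles with bars are the fold change and its 95% interval, filled where called, and diamonds below are the values with 1 library left out. GCLM is lowest at −1.81, and GPX1 and GPX4 are the genes whose diamonds fall on both sides of 0.

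Among the peroxidases that are members 1 of the 3 tested, GPX8, was called, a share near the 34.0% of all tested genes. GPX3, a peroxidase outside the members, was called lower and is given with its list below. GPX4 (ENSG00000167468, chromosome 19) is the selenoenzyme that reduces lipid hydroperoxides in membranes and so guards against ferroptosis, an iron-dependent form of cell death. It had 246 and 229 CPM in untreated libraries, 367 CPM in resistant replicate 1 and 222 CPM in resistant replicate 2. The resistant populations lay on either side of the untreated pair and differed by 0.73 on the log2 scale, more than any other tested member. The difference between groups did not pass (log2 fold change 0.31, 95% interval −0.20 to 0.82, adjusted p = 0.321). Its sign and call depended on 1 library. Without resistant replicate 1 the log2 fold change was −0.09 (adjusted p = 0.851), and without resistant replicate 2 it was 0.63 and passed (adjusted p = 0.0320).

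GPX1 (ENSG00000233276, chromosome 3), the abundant selenoenzyme of cytosol and mitochondria, had 55.7 and 44.7 CPM in untreated and 58.3 and 42.2 CPM in resistant libraries. The resistant values enclosed the untreated ones. The group means were 50.2 ± 7.80 CPM and 50.2 ± 11.4 CPM (SD, n = 2), with a 95% interval of the log2 fold change from −0.44 to 0.44 (adjusted p = 0.999). GPX1 counts are uncertain to a small degree, because a pseudogene copy, GPX1P1, was assigned 20.2 to 46.2 counts per library.

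GPX8 (ENSG00000164294, chromosome 5) is a membrane peroxidase of the endoplasmic reticulum that has cysteine in place of selenocysteine. It had 62.6 and 64.8 CPM in untreated and 48.0 and 44.6 CPM in resistant libraries. The groups did not overlap. The log2 fold change was −0.46 (SE 0.16, 95% interval −0.80 to −0.12, adjusted p = 0.0414). The call was close to the threshold and ended in 9 of 12 alternatives, among them every one that left out a library (adjusted p up to 0.146).

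GPX2 (ENSG00000176153, chromosome 14), a selenoenzyme of the gut epithelium, had 2, 4, 1 and 2 counts in untreated replicates 1 and 2 and resistant replicates 1 and 2. Even 0 counts would leave room for 3, which is 0.0801 to 0.104 CPM in these libraries. A fall in GPX2 was thus not detectable at this depth. A large rise from such a level could be called, as for PDGFRB from 0.0542 and 0.187 CPM in untreated libraries. The counts of GPX2 showed no such rise. Floors and intervals of this kind cover counting error only.

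Levels of different genes were compared per kilobase of exon, with lengths from GENCODE 29, so the order is approximate where transcripts of 1 gene differ in length. In untreated libraries GPX4 led with 118 CPM per kb. GPX1 (35.1) and GCLM (34.1) came next, and their libraries overlapped. GSR (24.8) and KEAP1 (20.9) followed, with the lower GSR library and the higher KEAP1 library both near 23.5, then GSS (16.5), GPX8 (16.5) and NFE2L2 (10.9). GCLC had 3.62 and GPX2 had 0.0537 CPM per kb. GSS and GPX8 overlapped in their libraries.

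In resistant libraries GPX4 again stood highest, at 146 CPM per kb, and GPX1 next, at 35.1. GCLM dropped from the third to the eighth place, at 9.74 CPM per kb. GSR (14.8), KEAP1 (14.0), NFE2L2 (13.5), GSS (13.3) and GPX8 (12.0) lay close together. Libraries of GSR and KEAP1 overlapped, and those of GSS overlapped both KEAP1 and NFE2L2. The lower KEAP1 library (13.6) lay just above the higher NFE2L2 one (13.5), and GPX8 lay just below GSS. GCLC (2.81) and GPX2 (0.0313) were again the lowest.

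**Figure D3:**
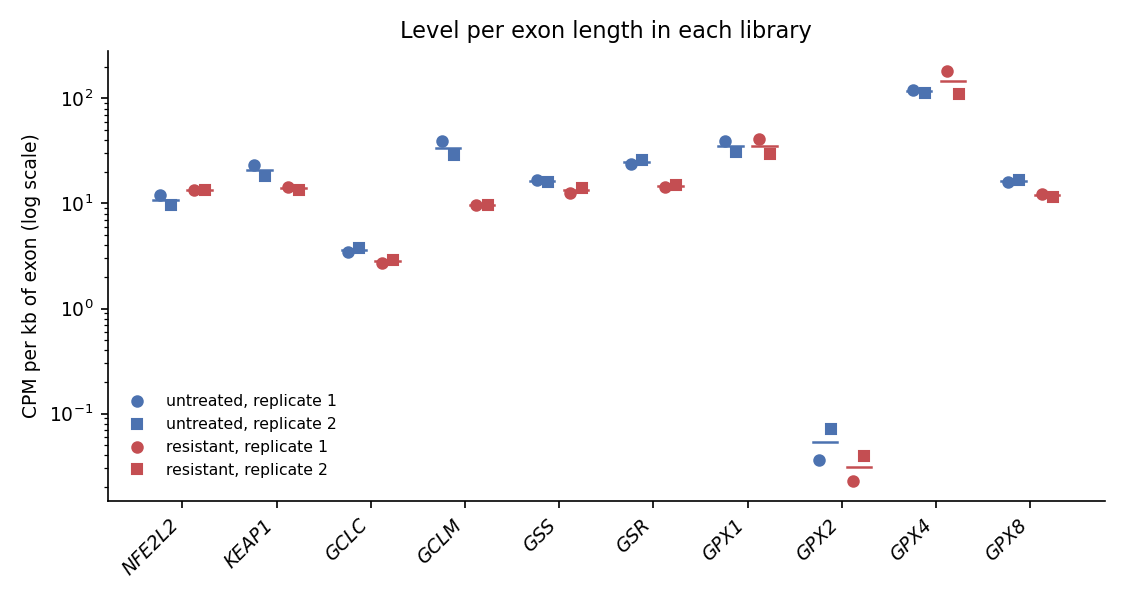
CPM per kilobase of exon (log axis) of the 10 genes, with points for single libraries, blue for untreated and red for resistant, and lines for group means. GPX4 is the highest in both groups, at 118 and 146 CPM per kb, and GCLM moves from 34.1 to 9.74 CPM per kb.

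NRF2 targets outside the glutathione genes, which handle quinones, haem, iron and NADPH, had calls in 1 direction. Of 25 tested genes in the list 11 rose, beside 16.6% of all tested genes, and 0 fell, beside 17.4%. The other 14 did not pass, and the list's median log2 fold change was 0.50. At an unadjusted p below 0.05, 13 were higher and 1 was lower, and DESeq2 and limma-voom called 0 lower. This list too was chosen with earlier results of these data known, so its shares are no independent test. HMOX1, which breaks down haem, rose from 26.1 ± 1.77 CPM to 117 ± 1.42 CPM (SD, n = 2). Its log2 fold change was 2.17 (SE 0.16, adjusted p = 1.08e-05). OSGIN1, an oxidative stress response gene, had 6.15 and 5.74 CPM in untreated and 89.0 and 51.6 CPM in resistant libraries, which is a log2 fold change of 3.56 (adjusted p = 3.12e-05). AKR1C2, an aldo-keto reductase, rose from 1.06 ± 0.448 CPM to 13.5 ± 1.88 CPM and is uncertain, since the AKR1C genes are near-identical. OSGIN1 shares exon sequence with a gene assigned at most 9.96 counts in a library. NQO1, the quinone reductase often read as a marker of NRF2 activity, had 653.6 and 702.5 CPM in untreated and 918.9 and 922.0 CPM in resistant libraries. Its resistant values were the higher pair, but it did not pass (log2 fold change 0.44, adjusted p = 0.0550). NQO1 was called in 5 of 12 alternatives, among them DESeq2 and limma-voom, and in none that left out a library. An antisense gene over NQO1 was assigned at most 3 counts.

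The partners and regulators of NRF2 moved both ways. Of 16 tested, 7 rose, beside 16.6% of all tested genes, 2 fell, beside 17.4%, and 7 did not pass. The list's median log2 fold change was 0.36. SQSTM1 (p62), which binds KEAP1 and draws it into autophagy, rose from 287 ± 8.13 CPM to 790.0 ± 110 CPM, a log2 fold change of 1.46 (adjusted p = 2.36e-04, SE 0.17). MAFK, a small MAF protein that pairs with NRF2 on DNA, had 45.8 and 47.0 CPM in untreated and 111 and 83.3 CPM in resistant libraries, which is a log2 fold change of 1.07 (adjusted p = 0.00150). CUL3, the scaffold of the ligase that KEAP1 serves, fell from 118 ± 15.8 CPM to 66.4 ± 1.78 CPM, a log2 fold change of −0.83 (adjusted p = 0.00335). CAND1, which exchanges the adaptors of cullin ligases, did not pass (log2 fold change −0.15, adjusted p = 0.499). MAFK overlaps TMEM184A and SQSTM1 overlaps MRNIP and MGAT4B on opposite strands, and CUL3 overlaps an antisense transcript, so these are uncertain to that extent. The number called higher was 3 without untreated replicate 1 or 2 and 4 without resistant replicate 1, and in each of these cases 1 gene was called lower.

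Genes that supply cysteine or break glutathione down had 6 of 18 tested members higher, 2 lower and 10 not passing. All tested genes had 16.6% called higher and 17.4% lower, and the list had a median log2 fold change of 0.17. GGT1, the surface enzyme that starts the breakdown of glutathione outside the cell, had 48.1 and 56.9 CPM in untreated and 170 and 143 CPM in resistant libraries. Its log2 fold change was 1.57 (SE 0.17, adjusted p = 1.42e-04), and it is uncertain because it has close paralogs and shares exon sequence with SNRPD3. CTH, which makes cysteine from cystathionine, rose from 9.36 ± 0.0243 CPM to 21.1 ± 3.11 CPM (adjusted p = 0.00311). CHAC2, which degrades glutathione inside the cell, fell from 9.91 ± 4.49 CPM to 2.10 ± 0.337 CPM, a log2 fold change of −2.23 (adjusted p = 0.00185). CHAC1 of the same list was called higher, with log2 fold changes from 0.74 to 1.15 over the alternatives. That call ended without untreated replicate 2 or without resistant replicate 1. AHCY, an enzyme of the methionine cycle, did not pass (log2 fold change −0.02, adjusted p = 0.923), and a transcript that shares its exons was assigned at most 23.2 counts. The number called higher was 2 without untreated replicate 2 or without resistant replicate 1, and the number called lower was 1 without untreated replicate 1 or without resistant replicate 1.

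Among the remaining peroxidases and the glutaredoxins, which reduce disulfides with glutathione, 2 of 5 tested genes fell, beside 17.4% of all tested genes. In this list 0 rose, beside 16.6%, 3 did not pass, and the median log2 fold change was −0.36. At an unadjusted p below 0.05 the edgeR test found 0 higher, as did DESeq2 and limma-voom at their adjusted thresholds. GPX3, the secreted plasma peroxidase, had 255 counts over the untreated libraries and 0 over the resistant ones, at least 71.7-fold lower against 3 counts over the group (adjusted p = 1.28e-04). It was kept for testing only through the untreated libraries, so its fall is no independent support for the list's share. GLRX3, an iron-sulfur glutaredoxin, fell from 101 ± 12.3 CPM to 58.0 ± 0.153 CPM, a log2 fold change of −0.80 (adjusted p = 0.00378). GLRX5, its mitochondrial relative, did not pass (log2 fold change −0.36, adjusted p = 0.147). Its overlap with SNHG10 on the opposite strand makes its counts uncertain. Without untreated replicate 2 the list had 1 gene called higher.

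Of the glutathione S-transferases, which join glutathione to other molecules, 3 of 16 tested rose, 2 fell and 11 did not pass. All tested genes had 16.6% called higher and 17.4% lower, and the list had a median log2 fold change of 0.31. GSTO1, an omega-class enzyme, fell from 75.3 ± 9.41 CPM to 33.3 ± 1.79 CPM, a log2 fold change of −1.18 (adjusted p = 6.68e-04, SE 0.17). GSTCD, a protein with a transferase-like domain, fell (log2 fold change −0.97, adjusted p = 0.00796) and is uncertain through an overlap with INTS12. GSTK1, a kappa-class enzyme, rose from 57.6 ± 2.68 CPM to 87.7 ± 3.15 CPM, a log2 fold change of 0.61 (adjusted p = 0.0119, and 0.0703 without untreated replicate 1). GSTP1, a pi-class enzyme, had 252 and 258 CPM in untreated and 324 and 349 CPM in resistant libraries and did not pass (adjusted p = 0.0731). Without untreated replicate 1 the list had 1 gene called higher.

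**Figure D4:**
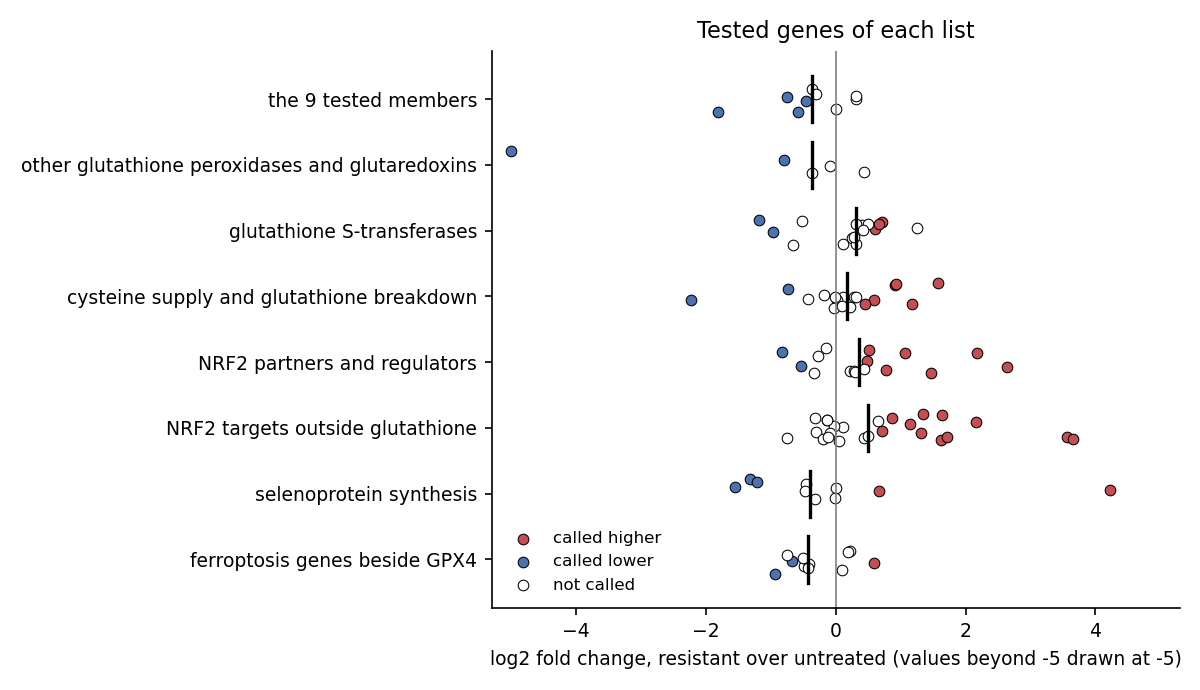
Log2 fold change of resistant over untreated libraries (horizontal axis) for the tested genes of each list, red where called higher, blue where called lower and white where not called, with a bar at each list's median. Vertical scatter within a list has no meaning, and GPX3 is drawn at the axis limit. The 9 members have no red point, and the NRF2 targets outside glutathione have 11 red points and no blue one.

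GPX1, GPX2 and GPX4 carry selenocysteine, so a list of genes that make or insert this amino acid or handle selenium was read beside them. Of 10 tested, 2 rose, beside 16.6% of all tested genes, 3 fell, beside 17.4%, and 5 did not pass. The list's median log2 fold change was −0.39. SEPHS2, which makes the selenium donor, had 101 and 91.4 CPM in untreated and 36.7 and 40.6 CPM in resistant libraries, which is a log2 fold change of −1.32 (adjusted p = 2.66e-04, SE 0.16). SCLY, which frees selenium from selenocysteine, fell from 51.4 ± 7.99 CPM to 22.1 ± 0.177 CPM, a log2 fold change of −1.22 (adjusted p = 9.11e-04). SELENOP, the selenium carrier of plasma, rose from 0.215 ± 0.0401 CPM to 4.07 ± 0.485 CPM, a log2 fold change of 4.22 (adjusted p = 2.07e-04). It was kept for testing only through the resistant libraries, so its rise is no independent support for the list's share. SEPHS1, a paralog of SEPHS2, did not pass (log2 fold change −0.47, adjusted p = 0.0619). SCLY is uncertain to a small degree, since the readthrough gene UBE2F-SCLY shares its exons. SELENOP overlaps CCDC152 on the opposite strand, which was assigned 0 counts in every library. The number called higher was 1 with any single library left out.

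Ferroptosis genes beside GPX4 had 1 of 11 tested members higher, 2 lower and 8 not passing. All tested genes had 16.6% called higher and 17.4% lower, and the list had a median log2 fold change of −0.42. ACSL4, which loads polyunsaturated fatty acids into membrane lipids, rose from 50.8 ± 11.0 CPM to 76.3 ± 4.81 CPM, a log2 fold change of 0.59 (adjusted p = 0.0294). That call ended without untreated replicate 2 or without resistant replicate 1 (adjusted p up to 0.200). ACSL4 shares some exon sequence with KCNE5, which was assigned at most 7 counts. The number called higher was 0 without untreated replicate 2. CISD1, an iron-sulfur protein of the mitochondrial membrane, fell by 0.93 on the log2 scale (adjusted p = 0.0114), and MBOAT2, a lipid acyltransferase, fell by 0.68 (adjusted p = 0.0210). The CISD1 call ended without untreated replicate 1 and the MBOAT2 call without untreated replicate 2, so each of these left 1 gene called lower. TFRC, the transferrin receptor, had 441 and 287 CPM in untreated and 269 and 579.7 CPM in resistant libraries, and the resistant values enclosed the untreated ones (log2 fold change 0.22, adjusted p = 0.716). It was called in 1 of 12 alternatives, that without resistant replicate 1.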

How the data were processed

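Polyadenylated RNA of MIA-PaCa2 cells was sequenced by the authors. Each deposited table gives the expected count of every gene, as the file headers name it, with no scaling for depth. The submitters' processing notes name STAR 2.7.2b, RSEM 1.3.1 and build GRCh37, while annotation release and strand setting are not given in the sources used here. Of all values 93.6% were whole, and all were rounded for the tests. Symbols came from the gene name table. GENCODE 29, of another build, gave only chromosome names, exon lengths and overlaps, and promoter windows came from RefSeq (GRCh38.p14).

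Genes were kept with filterByExpr, scaled with TMM factors (0.962 to 1.05) and tested by the quasi-likelihood F-test of edgeR 4.0.16 (robust, R 4.3.3, common biological coefficient of variation 19.6%). The standard error is the log2 fold change divided by the square root of F. The 95% intervals belong to single genes and are not adjusted. The members and lists (129 other genes, 3 without an ID) were chosen with earlier results of these data known. Overlaps and near-identical copies of named genes are given where known, since the counting may not separate them. Named genes were all members, and per list up to 3 called genes with the smallest adjusted p and the highest-level gene not called. CDH1, PTPRC, DCN and LUM, other markers of the lists, and CHAC1 were named after their values were seen. The alternatives comprised upper-quartile or RLE scaling, no filter on low counts or at least 1 CPM in 2 libraries, a replicate block, each library left out, DESeq2 1.42.0, limma-voom 3.58.1 and edgeR's newer quasi-likelihood form.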

Additional observations from a re-analysis of the deposited data

How the results depend on the processing

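GCLM and GSR kept their direction and call in all 12 alternatives, and NFE2L2, GCLC and GSS kept their direction and were never called. The number of members called lower was 4, and 2 to 3 with 1 library left out, and the number called higher was 0, and 0 to 1. Over all tested genes 5463 were called, and 2832 to 5041 with 1 library left out (2832 without untreated replicate 1). The log2 fold change of GPX1, which was −3.47e-04, took the other sign under RLE (0.0119) and upper-quartile scaling (0.0275), no filter (0.00145), the stricter filter (0.0309) and DESeq2 (0.0120), and ranged from −0.24 to 0.21 with 1 library left out. That of GPX4 ranged from −0.0850 to 0.63 with 1 library left out. The call of GPX8 ended under RLE scaling, either other filter, the replicate block, DESeq2 and each left-out library, at an adjusted p from 0.0506 to 0.146. The cause was not tested. With the replicate block 5275 genes and 3 members were called, and GPX8 lost its call (adjusted p = 0.0520). The replicate numbers share no stated batch, and deviations of replicate 1 from the group means correlated at −0.02 across genes between the groups, so the samples were not treated as paired. Where 1 library was left, it was assumed to vary like the other group. Depth limits only GPX2 among the members.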
